A study of Homo sapiens with 6 samples.

Results

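The genes of 10 cytosolic and mitochondrial heat shock proteins were followed in RNA sequencing of HCT116, a human colorectal cancer cell line. They were HSPA1A, HSPA1B, HSPA8, HSPA4, HSPH1, HSP90AA1, HSP90AB1, HSPB1, HSPD1 and HSPE1. The members were chosen by name: every row of the transcript count table with 1 of these 10 symbols in GENCODE v29 was taken, which gave 73 of 98803 matched transcripts and 10 of 18768 genes. The annotation holds 79 transcripts of these genes, and all 10 genes passed the filter on low counts, beside 13764 genes in all.

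The group si-AC010789.1 received an siRNA that targets the long non-coding RNA AC010789.1, and the group siRNA-NC received its negative control. Each group had 3 libraries. All 6 libraries came from transfected cells of this line in the same medium, and 1 siRNA in 1 line cannot separate the loss of its target from other effects of that siRNA. The level of AC010789.1 itself was not analysed here. The comparison asks which mRNAs differ when this RNA is silenced. Total counts ran from 11277222 to 13443866 per library, and 3 counts in a library correspond to 0.223 to 0.266 CPM, which are counts scaled to a common library total. Of the epithelial markers, KRT8 lay between 444 and 850 CPM and KRT18 between 351 and 535 CPM. EPCAM lay between 3.10 and 5.59 CPM and CDH1 did not exceed 1.05 CPM, so these defining markers of an epithelial line were near 0, and KRT19 and CDX2 were not analysed here. The identity of the cells was taken from the labels and was not checked further. Of 10 markers of other cell types, 3 passed the filter on low counts (CD68, COL1A1 and DCN), with COL1A1 the highest at 37.8 to 48.0 CPM. CD68, a marker of macrophages, had 6.56, 8.29 and 5.33 CPM with siRNA-NC and 2.97, 4.71 and 2.19 CPM with si-AC010789.1, groups that did not overlap (log2 fold change -1.03, edgeR unadjusted p = 0.0149, adjusted p = 0.181). Their part in the results was not tested, and in bulk RNA a change in each cell cannot be told apart from a change in the mix of cells.

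Heat shock proteins are molecular chaperones, which bind unfolded or partly folded proteins and keep them from aggregating. HSP70 proteins work through cycles of ATP binding and hydrolysis driven by J-domain partners and nucleotide exchange factors, and they pass some clients on to HSP90, on which many kinases and transcription factors depend. In the mitochondrial matrix, HSPD1 (HSP60) and its lid HSPE1 (HSP10) form a folding chamber. Many of these genes are induced by heat shock factor 1 (HSF1), which binds repeats of a short element in their promoters, and tumour cells often express them at high level.

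No member passed the edgeR test on its gene sum, where 0.944% of all tested genes did. DESeq2 called 2, HSPE1 and HSP90AA1, beside 5.47% of all genes with an adjusted p. HSPE1 and HSPD1, the pair that makes the mitochondrial chamber, and HSP90AA1, the inducible HSP90, stood higher in all 3 si-AC010789.1 libraries than in any siRNA-NC library, by 0.25 to 0.36 on the log2 scale. Of all tested genes, 12.2% had groups apart in that direction. With protein-coding transcripts only, the log2 fold change was 6.28e-05 for HSP90AA1, 0.37 for HSPD1 and 0.40 for HSPE1. Without its transcript HSPE1-202, left out after its values were seen, HSPE1 had a log2 ratio of means of -0.10. Exons of HSPE1 and HSPD1 overlap on opposite strands, and the strand setting is not given in the sources used here. The other 7 members differed by at most 0.10 on the log2 scale. The larger differences lay within genes. By DESeq2, 4 transcripts of HSP90AA1 and HSPE1 passed, in both directions, beside 0.925% of all transcripts. By edgeR none passed, beside 0.0135% of all tested transcripts. The sequences that follow show where the transcripts of these genes part.

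Each line gives 40 bases of coding sequence in transcript direction from the GENCODE v29 transcripts (GRCh38), 20 on each side of an exon border. Capitals mark the side that tells the transcripts of a gene apart. HSP90AA1-201 starts at the downstream promoter and joins its exon 2, which ends at chr14:102086217, to the 367-base exon 3. HSP90AA1-204, annotated as a target of nonsense-mediated decay, skips that exon. Its last exon, of 638 bases, also runs past the end of the matching 269-base exon of HSP90AA1-201 and ends in the intron. HSP90AA1-202 starts far upstream and joins an exon ending at chr14:102101875 to the exon that HSP90AA1-201 uses as its exon 2.
HSP90AA1-201: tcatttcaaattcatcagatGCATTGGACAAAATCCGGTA
HSP90AA1-204: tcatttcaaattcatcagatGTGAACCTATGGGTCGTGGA
HSP90AA1-202: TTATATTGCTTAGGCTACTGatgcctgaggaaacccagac

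In HSPE1, HSPE1-201 splices exon 3, which ends at chr2:197503128, to exon 4. HSPE1-202 is annotated as protein-coding but reads on past that splice site. It runs through the whole intron and into the bases of exon 4, to chr2:197503382.
HSPE1-201: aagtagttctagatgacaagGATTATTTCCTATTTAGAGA
HSPE1-202: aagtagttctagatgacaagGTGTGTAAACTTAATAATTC

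Heat shock elements were searched in RefSeq promoter windows (GRCh38.p14, 250 bases before to 50 after a start), as 3 units of alternating orientation, GAANNTTCNNGAA or TTCNNGAANNTTC, which are the reverse complement of each other and so cover both strands. Such an element was found in 172 of 35116 windows (0.49%). Of 14 windows of the members, 4 held one, in 4 of the 10 genes. The looser element of 2 units (GAANNTTC or TTCNNGAA, which every longer element also contains) was found in 13.5% of all windows and in 7 of the 14 member windows. The elements are shown because the windows of HSP90AA1 differed in this respect, with capitals marking the 3 units. The windows of HSP90AB1 and of HSPD1 also differed within the gene.
HSP90AA1 downstream start, chr14:102087112-102087140, minus strand: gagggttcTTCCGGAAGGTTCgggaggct
HSPA8, chr11:123062171-123062199, minus strand: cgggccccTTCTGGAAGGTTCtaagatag
HSP90AB1, chr6:44247823-44247851, plus strand: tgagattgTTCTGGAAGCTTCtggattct
HSPD1 second start, chr2:197500060-197500088, minus strand: attttctgGAAAGTTCTGGAAccgagcga
The window of the upstream HSP90AA1 start held neither form. Neither did the HSPD1 window at start chr2:197500274 or the HSP90AB1 windows at starts chr6:44246194 and chr6:44247101. The HSP90AB1 element shown is from the window at start chr6:44247943. HSP90AB1-203, which took most of the counts of that gene, starts at chr6:44247087. The HSP90AA1 element lies before the RefSeq start at chr14:102087044 but inside exon 1 of HSP90AA1-201, which begins at chr14:102087191. A match describes these letters only and is no evidence of binding.

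The level of each member was compared per length, as TPM, in which counts are divided by transcript length and scaled to a common total. HSPA8, the constitutive HSP70, led with 2323 ± 101 TPM (SD, n = 6 libraries). HSP90AB1, the constitutive HSP90, had 1339 ± 83.3 TPM and HSP90AA1 1324 ± 232 TPM, and these neighbours overlapped. Their order differed by group, with HSP90AB1 ahead in siRNA-NC (1312 ± 116 against 1125 ± 108 TPM, n = 3) and HSP90AA1 ahead in si-AC010789.1 (1523 ± 67.0 against 1365 ± 42.2 TPM, n = 3). These HSP90AA1 sums include the decay transcript HSP90AA1-204, of 1710 bases, with 73.9 ± 20.3 TPM in siRNA-NC and 432 ± 18.8 TPM in si-AC010789.1. In the same groups HSP90AA1-201 had 720 ± 7.41 and 874 ± 39.3 TPM, and HSP90AA1-202 had 172 ± 57.5 and 20.7 ± 4.02 TPM. HSPA1A (610 ± 31.4 TPM), HSPD1 (522 ± 71.9 TPM) and HSPB1 (400 ± 16.2 TPM) followed. In this run HSPA1A overlapped HSPD1 and HSPD1 overlapped HSPB1. The order then ran from HSPA4 (228 ± 5.10 TPM) through HSPH1 (194 ± 10.2 TPM) and HSPE1 (123 ± 25.2 TPM) to HSPA1B (73.9 ± 2.31 TPM), with no overlap between neighbours. Together the members took 0.745% to 0.777% of all counts in the siRNA-NC libraries and 0.788% to 0.819% in the si-AC010789.1 libraries.

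**Figure D1:**
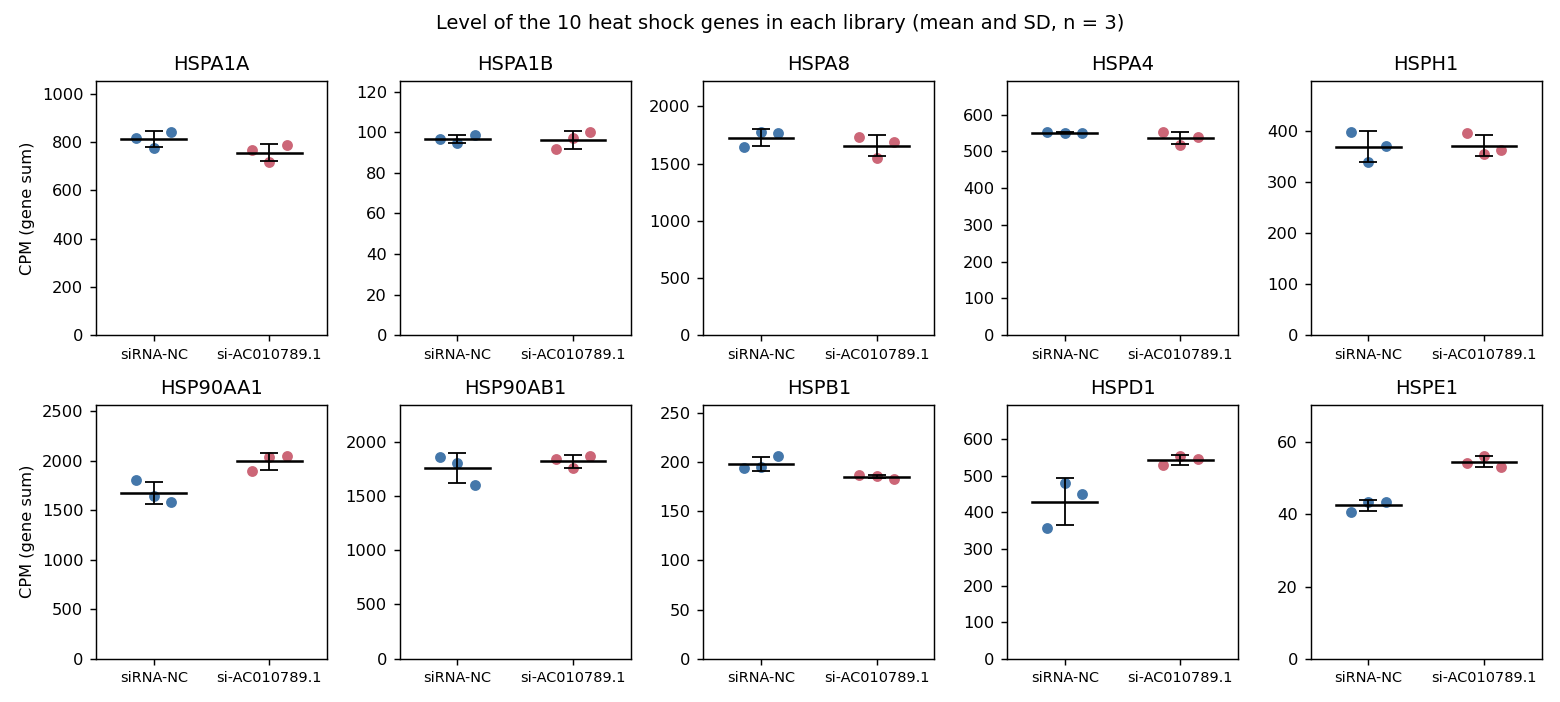
CPM of the summed transcripts of each of the 10 genes (vertical axes, from 0) in 3 siRNA-NC and 3 si-AC010789.1 libraries. Points are libraries, horizontal lines means and bars SD. HSP90AA1, HSPD1 and HSPE1 are higher and HSPB1 lower in every si-AC010789.1 library than in any siRNA-NC library.

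The groups overlapped for each HSP70 member of the cytosol. HSPA1A (ENSG00000204389.9, chr6:31815464-31817946, plus strand) encodes a stress-inducible HSP70. It had 817, 775 and 842 CPM with siRNA-NC and 765, 718 and 786 CPM with si-AC010789.1. The groups overlapped, with a log2 fold change of -0.10 (SE 0.05, 95% interval -0.23 to 0.02, edgeR adjusted p = 0.384). HSPA1B (ENSG00000204388.6, chr6:31827735-31830255, plus strand) encodes nearly the same protein. It had 96.7, 94.8 and 98.6 CPM against 91.6, 97.1 and 100.2 CPM, a log2 fold change of -0.01 (SE 0.06, adjusted p = 0.969). The coding sequences of these neighbouring genes differed at 4 of 1923 bases. Of the 100-base windows of HSPA1A-201, 69.9% also occur in a transcript of another gene, and for HSPA1B-201 the share was 72.7%, so the split of counts between them is uncertain. Their sum, with pseudogene rows added to the other members, had a log2 fold change of -0.09.

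HSPA8 (ENSG00000109971.13, chr11:123057489-123063230, minus strand) folds new proteins and uncoats clathrin vesicles. It had 1642, 1777 and 1763 CPM with siRNA-NC and 1729, 1551 and 1691 CPM with si-AC010789.1. The groups overlapped (log2 fold change -0.06, 95% interval -0.20 to 0.08, edgeR adjusted p = 0.649). Small nucleolar RNA genes (SNORD14C and SNORD14D) overlap its exons on the same strand. HSPA8-222 took 51.7% ± 2.43 of its counts in the controls and 49.6% ± 2.98 after silencing (SD, n = 3), and HSPA8-212 took 37.9% ± 1.58 and 39.4% ± 1.97. HSPA8-202 took 1.86% ± 0.449 and 2.50% ± 0.786. The groups overlapped for each of these 3 transcripts. HSPA8-222 and the full-length HSPA8-201 share all of their 100-base windows with other HSPA8 transcripts. Windows in no other transcript were 5.63% for HSPA8-212 and 4.88% for HSPA8-202, so these shares rest on how reads were divided.

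HSPA4 and HSPH1 belong to the HSP110 branch, whose members release ADP from HSP70 and hold unfolded clients. HSPA4 (ENSG00000170606.14, chr5:133051962-133106449, plus strand) had 553, 551 and 549 CPM against 552, 518 and 538 CPM. Its log2 fold change was -0.04 (95% interval -0.13 to 0.06, edgeR adjusted p = 0.666). HSPA4-201 took 96.5% ± 0.158 and 96.4% ± 1.23 of its counts. HSPA4-204 took 3.47% ± 0.197 and 3.45% ± 1.19. HSPA4-203, a retained intron under the filter on low counts, had at most 1.16 CPM. The protein-coding share of HSPA4 was lower by 0.12 percentage points in the si-AC010789.1 group, without overlap (p = 0.1 in a two-sided exact permutation test, which 3 against 3 libraries cannot go below).

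HSPH1 (ENSG00000120694.19, chr13:31134974-31162388, minus strand) had 399, 339 and 372 CPM with siRNA-NC and 396, 356 and 364 CPM with si-AC010789.1. The groups lay over each other (log2 fold change 0.01, SE 0.07, edgeR adjusted p = 0.969). Its transcripts varied more than its sum. HSPH1-202 had 110, 162 and 231 CPM in the 3 control libraries, and HSPH1-201, named after its values were seen, had 140, 74.1 and 16.3 CPM in the same libraries. In those libraries HSPH1-201 was thus low where HSPH1-202 was high. Windows in no other transcript were 0% for HSPH1-201 and 2.93% for HSPH1-202, so the split of counts between them is uncertain. With si-AC010789.1, HSPH1-202 had 197, 170 and 176 CPM and HSPH1-201 had 20.1, 10.7 and 25.4 CPM. HSPH1-202 and HSPH1-201 each overlapped between the groups. Their sum, taken after their values were seen, did not, with 250.02, 236 and 248 CPM against 217, 180 and 201 CPM (exact permutation p = 0.1). HSPH1-204 took 14.6% ± 6.82 of the counts in the controls and 24.5% ± 2.97 after silencing. Its groups were apart in share and in CPM (log2 fold change 0.72, edgeR adjusted p = 0.942). Windows in no other transcript were 3.50% for HSPH1-204, so its values and the sum above also rest on how reads were divided. The retained intron HSPH1-207 took 13.1% ± 1.45 and 17.4% ± 8.49. Single transcript values are scaled by factors from all transcripts, so a gene with 1 transcript has slightly different CPM on the gene and the transcript scale.

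HSP90AA1 (ENSG00000080824.18, chr14:102080738-102139699, minus strand) encodes the HSP90 that stress induces. Its sum had 1803, 1650 and 1585 CPM with siRNA-NC and 1901, 2040 and 2055 CPM with si-AC010789.1. All 3 silenced libraries stood above all 3 controls. The log2 fold change was 0.25 (SE 0.06, 95% interval 0.11 to 0.40), with an edgeR adjusted p of 0.12 and a DESeq2 adjusted p of 0.0248. HSP90AB1 (ENSG00000096384.19, chr6:44246166-44253888, plus strand), whose coding sequence is 75.8% identical, had 1860, 1802 and 1599 CPM against 1835, 1754 and 1871 CPM. That log2 fold change was 0.05 (SE 0.06, edgeR adjusted p = 0.729), and the groups overlapped.

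By edgeR, 0 of the 10 members passed an adjusted p of 0.05, where 0.944% of all tested genes did. By DESeq2, 2 members did (HSPE1 and HSP90AA1), where 5.47% of all genes with an adjusted p did. At an unadjusted p under 0.05, 3 members were higher (HSPE1, HSP90AA1 and HSPD1), beside 8.25% of all genes, and 0 were lower, beside 8.91%. The groups did not overlap for 3 members that were higher, beside 12.2% of all genes, and for 1 that was lower (HSPB1), beside 12.9%. The median log2 fold change of the members was 0.001 and that of all tested genes was -0.00059.

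**Figure D2:**
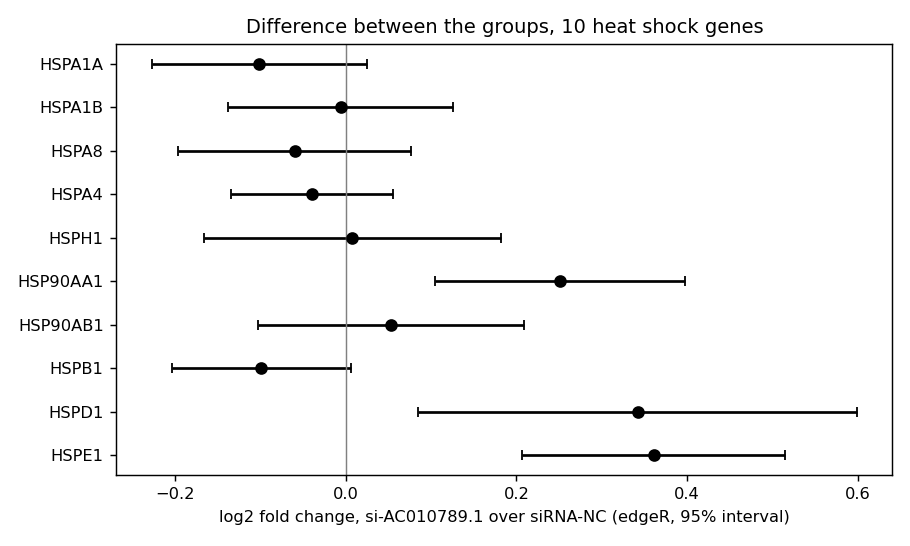
Log2 fold change of si-AC010789.1 over siRNA-NC (horizontal axis) for each of the 10 genes, with the 95% interval from edgeR. The intervals of HSP90AA1, HSPD1 and HSPE1 lie above 0 before adjustment over all genes, and those of the other 7 include 0.

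The transcripts of HSP90AA1 differed far more than their sum. HSP90AA1-202, whose coding sequence of 2562 bases is longer than the 2196 bases of HSP90AA1-201, had 433, 289 and 237 CPM with siRNA-NC. With si-AC010789.1 it had 29.9, 43.4 and 41.3 CPM. Every silenced library lay far below every control, a log2 fold change of -3.06 (95% interval -3.78 to -2.34), with an edgeR adjusted p of 0.117 and a DESeq2 adjusted p of 9.58e-12. HSP90AA1-204 stood the other way, with 85.4, 64.8 and 51.0 CPM against 373, 402 and 391 CPM. Its log2 fold change was 2.53 (95% interval 2.03 to 3.04), with an edgeR adjusted p of 0.0879 and a DESeq2 adjusted p of 9.93e-14.

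The 2 transcripts, summed after their values were seen, had 387 ± 119 CPM with siRNA-NC and 427 ± 21.6 CPM with si-AC010789.1 (SD, n = 3, exact two-sided permutation p = 0.6). The sums of the controls were 518, 354 and 288 CPM, a spread too wide to show that the totals are equal. HSP90AA1-202 took 18.4% ± 4.74 of the gene's counts in the controls and 1.87% ± 0.289 after silencing, and HSP90AA1-204 took 3.86% ± 0.775 and 19.1% ± 0.379. The lead transcript HSP90AA1-201 took 75.4% ± 5.82 and 76.4% ± 0.511. Its level was 1261, 1314 and 1311 CPM against 1485, 1572 and 1611 CPM (log2 fold change 0.26, edgeR unadjusted p = 0.000856, adjusted p = 0.236, DESeq2 adjusted p = 0.929). HSP90AA1-207, a retained intron of the middle of the gene, had 5.67, 5.15 and 6.19 CPM against 14.2, 14.0 and 11.6 CPM. That was a log2 fold change of 1.23 (edgeR adjusted p = 0.355, DESeq2 adjusted p = 0.00154).

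The share of HSP90AA1 counts in protein-coding transcripts was 92.6%, 94.1% and 94.9% with siRNA-NC and 78.1%, 78.0% and 79.0% with si-AC010789.1. The groups did not overlap, and the difference was -15.5 percentage points (p = 0.1 in the same exact test, its lower limit). Without HSP90AA1-204, a choice made after its values were seen, the sum of the other transcripts was 1614 ± 94.4 CPM with siRNA-NC and 1617 ± 72.1 CPM with si-AC010789.1 (exact permutation p = 1). Other choices gave other values: the log2 ratio of means was 0.52 without HSP90AA1-202, with groups apart, and 0.17 without HSP90AA1-201. With protein-coding transcripts only, the edgeR log2 fold change of HSP90AA1 was 6.28e-05 (adjusted p = 1.00), in place of 0.25 for all transcripts. Of the 100-base windows of HSP90AA1-204, 28.8% occur in no other transcript, against 7.65% for HSP90AA1-202. An exon of WDR20 overlaps HSP90AA1 on the other strand.

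**Figure D3:**
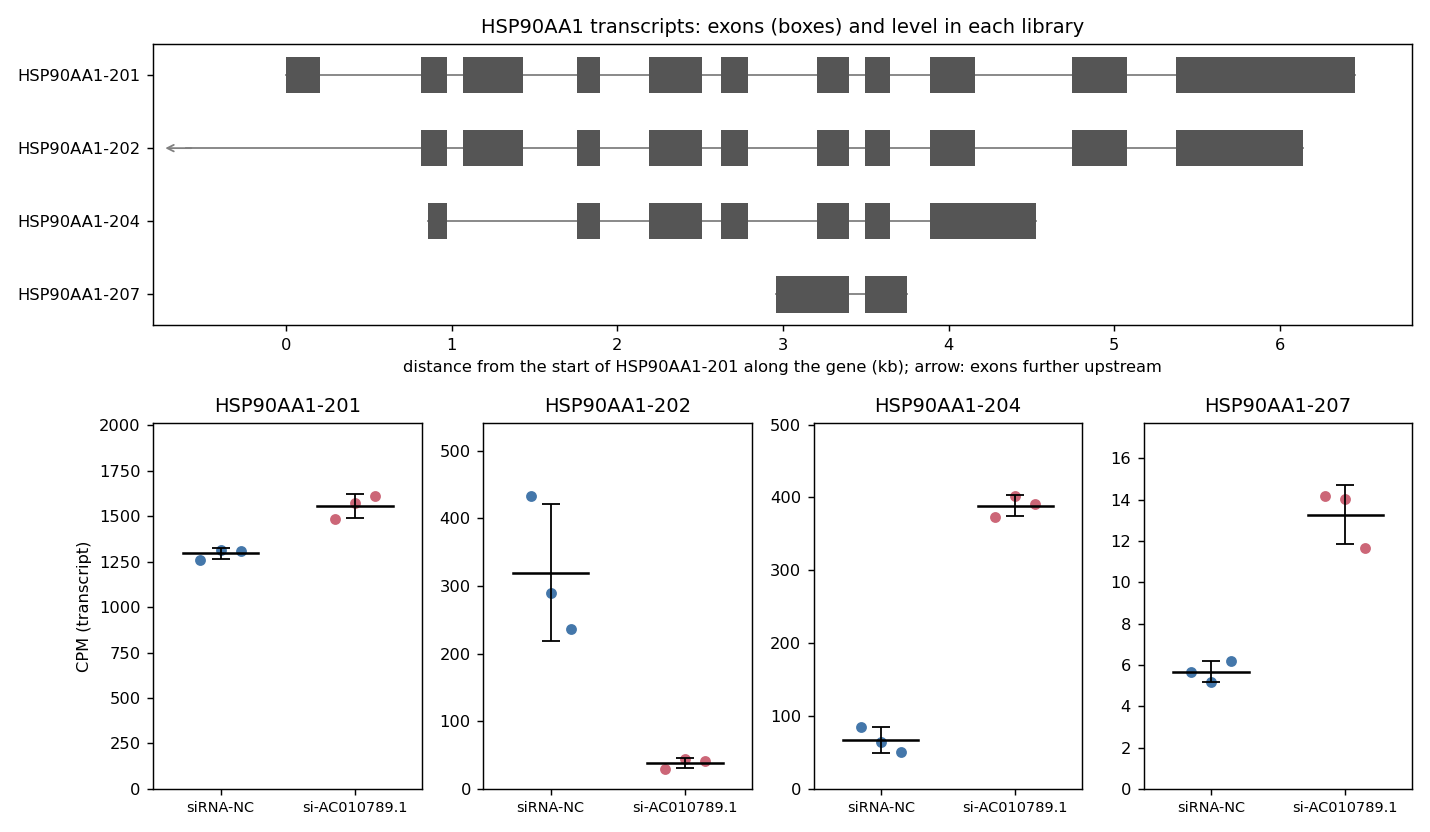
Top, exons of 4 HSP90AA1 transcripts drawn to scale against the distance in kb from the start of HSP90AA1-201, with the upstream exons of HSP90AA1-202 beyond the arrow. Bottom, CPM of each transcript per library with mean and SD (n = 3, axes from 0): HSP90AA1-202 is lower and HSP90AA1-201, HSP90AA1-204 and HSP90AA1-207 are higher in all 3 si-AC010789.1 libraries.

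HSP90AB1 had no such shift that passed a test. HSP90AB1-203 had 1672, 1684 and 1323 CPM against 1680, 1623 and 1777 CPM. HSP90AB1-204, from the first of its starts, had 198, 173 and 203 CPM against 170, 146 and 109 CPM, without overlap (log2 fold change -0.44, edgeR adjusted p = 0.875). It took 10.7% ± 1.54 of the gene's counts in the controls and 7.65% ± 1.73 after silencing, also without overlap. HSP90AB1-201 had 17.7, 7.34 and 101 CPM against 22.6, 9.08 and 22.1 CPM, so that 1 control library stood apart from the other 5.

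HSPB1 (ENSG00000106211.8, chr7:76302544-76304295, plus strand) encodes HSP27, a small heat shock protein that holds unfolded proteins without ATP. It had 194, 195 and 207 CPM with siRNA-NC and 186, 186 and 183 CPM with si-AC010789.1. The groups did not overlap, but the difference was small (log2 fold change -0.10, 95% interval -0.20 to 0.01, edgeR adjusted p = 0.319). HSPB1-201 took 95.0% ± 1.10 and 94.5% ± 0.349 of the counts, HSPB1-203, annotated for nonsense-mediated decay, 4.84% ± 1.05 and 5.37% ± 0.416. HSPB1-202 did not exceed 0.780 CPM.

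HSPE1 (ENSG00000115541.10, chr2:197499994-197503457, plus strand) had 40.8, 43.4 and 43.4 CPM with siRNA-NC and 54.2, 56.3 and 53.3 CPM with si-AC010789.1. The groups were far apart for their spread. The log2 fold change was 0.36 (SE 0.06, 95% interval 0.21 to 0.52), with an edgeR adjusted p of 0.0659 and a DESeq2 adjusted p of 0.00609. HSPE1 shares exons with the readthrough gene HSPE1-MOB4 on the same strand and with HSPD1 on the other, so reads there can be assigned to either.

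HSPE1-202, the form that reads through the last intron, had 1.35, 1.33 and 1.86 CPM (15, 17 and 24 counts) in siRNA-NC libraries. In si-AC010789.1 libraries it had 18.7, 11.03 and 20.1 CPM (210, 136 and 243 counts). The lowest silenced library was several times above the highest control, a log2 fold change of 3.45 (95% interval 2.54 to 4.35), with an edgeR adjusted p of 0.153 and a DESeq2 adjusted p of 2.74e-10. HSPE1-201, the usual transcript, had 29.9, 32.9 and 28.3 CPM against 20.3, 32.8 and 22.7 CPM, and its groups overlapped (log2 fold change -0.26, edgeR adjusted p = 0.979). The retained intron HSPE1-204 had 6.48, 4.29 and 8.04 CPM against 12.4, 7.95 and 7.18 CPM.

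HSPE1-201 took 72.2%, 73.2% and 63.3% of the gene's counts with siRNA-NC and 36.8%, 57.5% and 41.8% with si-AC010789.1, a difference of -24.2 percentage points without overlap (p = 0.1 in the exact permutation test, its lower limit). HSPE1-202 took 3.46% ± 0.621 in the controls and 30.0% ± 9.43 after silencing. HSPE1-201 and HSPE1-202 together had 31.9 ± 2.09 CPM against 41.9 ± 2.53 CPM, with groups apart (exact permutation p = 0.1, a sum chosen after the values were seen). Without HSPE1-202, left out because its values were higher, HSPE1 had 41.0 ± 1.397 CPM with siRNA-NC and 38.3 ± 6.30 CPM with si-AC010789.1 (exact permutation p = 0.5). None of the 100-base windows of HSPE1-202 is free of other annotated transcripts, so its counts rest on how reads were divided between transcripts.

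HSPD1 (ENSG00000144381.16, chr2:197486581-197516737, minus strand) had 357, 480 and 449 CPM with siRNA-NC and 529, 556 and 546 CPM with si-AC010789.1. The silenced libraries were close together and above all controls, of which the first was the lowest. The log2 fold change was 0.34 (SE 0.11, 95% interval 0.09 to 0.60), with an edgeR adjusted p of 0.19, a DESeq2 adjusted p of 0.0834 and a range of 0.23 to 0.43 when each library was left out. Rows of HSPD1 pseudogenes held up to 10.1% as many counts as HSPD1 in a library.

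The 2 main HSPD1 transcripts differ mainly in the first exon. HSPD1-201 had 252, 421 and 331 CPM against 397, 0 and 469 CPM, and HSPD1-202 had 49.8, 26.8 and 61.5 CPM against 60.7, 481 and 20.6 CPM. In the second si-AC010789.1 library, HSPD1-201 had 0 counts, which allows up to 0.241 CPM, and HSPD1-202 held 85.2% of the gene's counts. Their sum in that library, 481 CPM, lay between the 458 and 489 CPM of the other 2. The 100-base windows free of other transcripts were 3.00% for HSPD1-201 and 7.34% for HSPD1-202. Neither transcript differed between groups beyond this spread.

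Among the smaller HSPD1 transcripts, HSPD1-209 had 6.93, 3.43 and 6.11 CPM against 23.6, 14.4 and 7.35 CPM, and the retained intron HSPD1-211 had 4.50, 1.795 and 2.63 CPM against 6.86, 9.16 and 5.04 CPM. Both sets of libraries were apart, with edgeR adjusted p of 0.826 and 0.844. The retained intron HSPD1-210 took 8.25% ± 2.04 and 6.76% ± 0.322 of the counts.

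Of 58 member transcripts tested, 0 passed an adjusted p of 0.05 by edgeR, where 0.0135% of all 44297 tested transcripts did, and 9 had an unadjusted p under 0.05, beside 5.74% of all. By DESeq2, 4 member transcripts passed (HSP90AA1-202, HSP90AA1-204, HSP90AA1-207 and HSPE1-202), beside 0.925% of all transcripts. At an unadjusted p under 0.05, an absolute log2 fold change over 1 and groups that do not overlap, 6 member transcripts remained, beside 3.06% of all. These were the 4 above, HSPD1-209 and HSPD1-211. Within a group, 29 of the 58 (50%) differed more than 2-fold between libraries, beside 65.6% of all tested transcripts, and 0 of the 10 gene sums did, beside 13.8% of all tested genes.

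**Figure D4:**
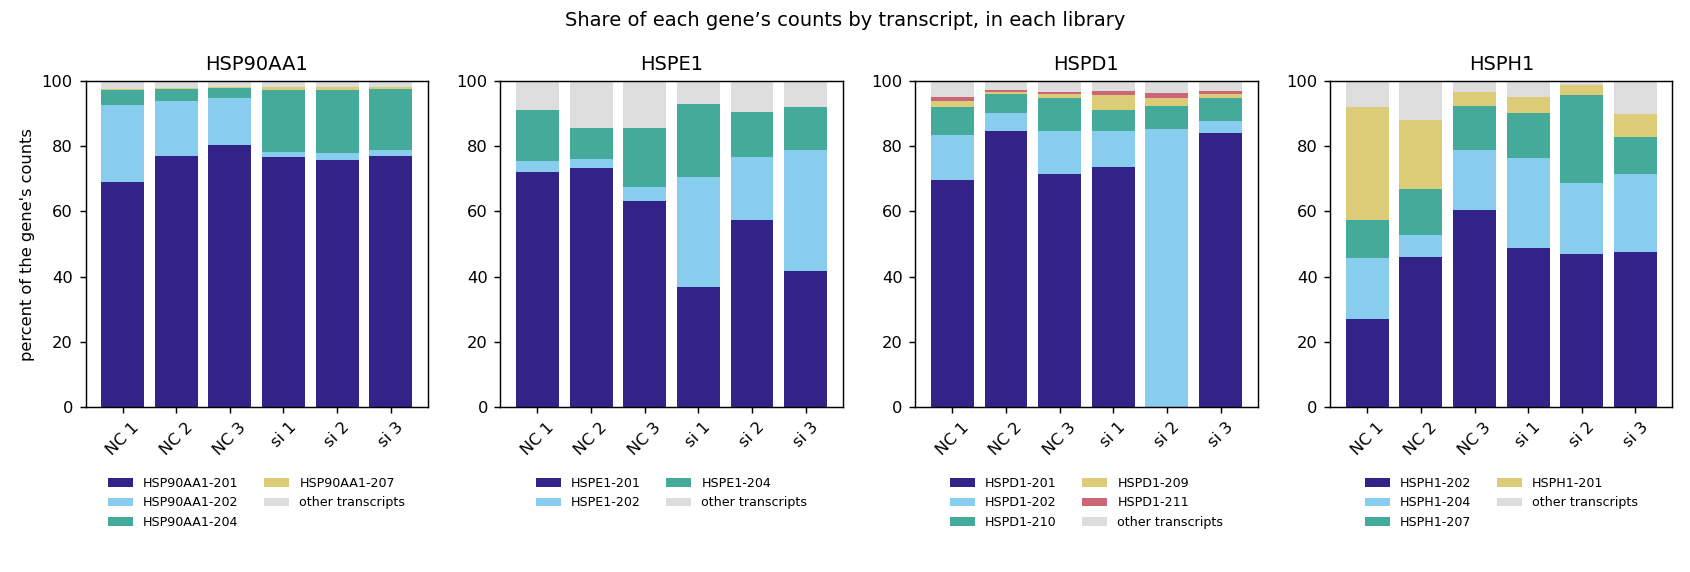
Percent of the counts of HSP90AA1, HSPE1, HSPD1 and HSPH1 taken by each named transcript (stacked bars, 0 to 100%) in the 3 siRNA-NC (NC) and 3 si-AC010789.1 (si) libraries. HSP90AA1-202 is smaller and HSP90AA1-204, HSPE1-202 and HSPH1-204 are larger in every si library than in any NC library. The exchange of HSPD1-201 for HSPD1-202 appears in 1 library, and HSPH1 varies among the controls.

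The partners of these chaperones were read from 8 lists. Of their 99 tested genes, 0 passed an edgeR adjusted p of 0.05. At an unadjusted p under 0.05, 14 were higher, beside 8.25% of all genes, and 3 lower, beside 8.91%. DESeq2 called 2 (HSBP1 and PDIA4), beside 5.47% of all genes. Of the 25 cytosolic J-domain proteins and nucleotide exchange factors, 6 were higher at an unadjusted p under 0.05 (8.25% of all genes) and 0 lower (8.91% of all genes), with a median log2 fold change of 0.03. DNAJA1, the most abundant per length (242 TPM), had 297, 261 and 276 CPM against 319, 307 and 308 CPM (log2 fold change 0.16, edgeR adjusted p = 0.22). DNAJB4 (0.43, edgeR adjusted p = 0.186) and DNAJA4 (0.40, edgeR adjusted p = 0.287) had the largest log2 fold changes.

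Of the 16 HSP90 co-chaperones, 4 were higher at an unadjusted p under 0.05 (8.25% of all genes) and 0 lower (8.91%), with a median log2 fold change of 0.09. STIP1, which joins HSP70 to HSP90, had 434, 391 and 407 CPM against 449, 433 and 441 CPM, with overlapping groups (log2 fold change 0.10, edgeR adjusted p = 0.351). The largest log2 fold changes were -0.48 for CDC37L1 and -0.31 for FKBP5, each with 1 silenced library far below the other 2. For CDC37L1 that library had 6.55 CPM where the other 5 lay between 17.98 and 20.6 CPM.

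Of the 14 TRiC and prefoldin subunits, which fold actin and tubulin, 1 was higher at an unadjusted p under 0.05 (8.25% of all genes). This was CCT5, with 1108, 1170 and 1191 CPM against 1432, 1366 and 1243 CPM (log2 fold change 0.22, edgeR adjusted p = 0.158). PFDN4 had a log2 fold change of -0.17 (edgeR adjusted p = 0.386). Of the 14 mitochondrial chaperones and proteases, 1 was higher at that threshold (TRAP1, the mitochondrial HSP90, named after its values were seen, log2 fold change 0.17, edgeR adjusted p = 0.134). HSPA9, the mitochondrial HSP70, had 654, 646 and 611 CPM against 659, 609 and 651 CPM, a log2 fold change of 0.01 (edgeR adjusted p = 0.966). DNAJA3 (-0.56, edgeR adjusted p = 0.3) and SPG7 (0.26, edgeR adjusted p = 0.302) had the largest log2 fold changes, and their groups overlapped.

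Of the remaining HSP70 and HSP110 genes, 7 gene IDs were tested and 0 had an unadjusted p under 0.05. HSPA13 (log2 fold change 0.02) was the most abundant per length, and HSPA2 (0.36) and HSPA12A (0.29) differed most, within overlapping groups. The groups were apart for HSPA1L (0.26) and HSPA4L (0.12), named after their values were seen. Both were higher with si-AC010789.1, beside 12.2% of all genes. Of 4 other small heat shock proteins, 0 had an unadjusted p under 0.05: HSPB7 had a log2 fold change of 0.06, HSPB8 of -0.36 and CRYAB of 0.39. Of 5 heat shock factors and regulators, 2 were higher at an unadjusted p under 0.05 (8.25% of all genes), with a median of 0.23. HSF1 itself had 43.5, 54.8 and 52.9 CPM against 45.3, 47.1 and 44.4 CPM (log2 fold change -0.14, edgeR adjusted p = 0.515), and its groups overlapped. HSF4 had 10.7, 11.7 and 11.1 CPM against 14.1, 16.5 and 15.2 CPM (log2 fold change 0.45, edgeR adjusted p = 0.108). HSBP1, which binds HSF1 and holds back its activity, had 48.0, 54.4 and 52.1 CPM against 75.3, 67.3 and 59.5 CPM (log2 fold change 0.39, edgeR adjusted p = 0.139, DESeq2 adjusted p = 0.0446).

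The 14 chaperones of the endoplasmic reticulum had a median log2 fold change of -0.09, with 3 lower (8.91% of all genes) and 0 higher (8.25%) at an unadjusted p under 0.05. PDIA4, a disulfide isomerase, had 420, 454 and 424 CPM against 360, 354 and 363 CPM, a log2 fold change of -0.27 (SE 0.04, edgeR adjusted p = 0.0586, DESeq2 adjusted p = 0.00129). The other 2, named after their values were seen, were PDIA6 (-0.19, edgeR adjusted p = 0.197) and HSPA5, the HSP70 of this compartment (-0.10, edgeR adjusted p = 0.258). CANX, close to CALR in mean level per length (1100.4 against 1095 TPM over the 6 libraries), had 1224, 1227 and 1876 CPM against 1793, 1808 and 1861 CPM (0.34, edgeR adjusted p = 0.365), with the third control library the highest of all 6.

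**Figure D5:**
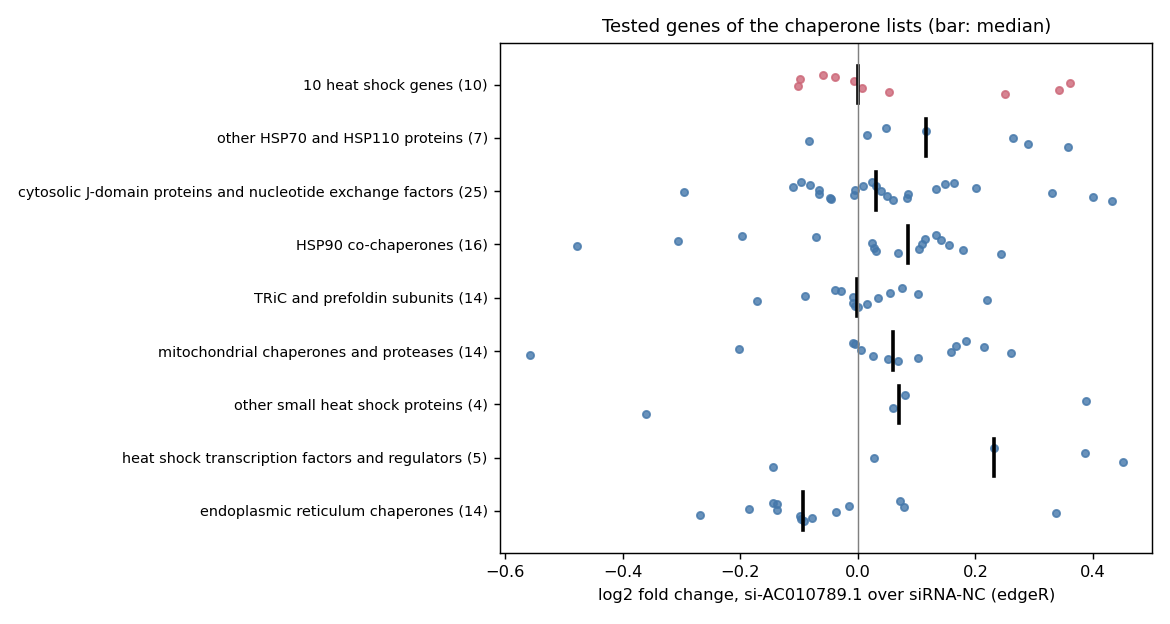
Log2 fold change of si-AC010789.1 over siRNA-NC (edgeR, horizontal axis) of every tested gene in the 10 heat shock genes and 8 related lists. Each point is a gene, the bar is the median and the number in brackets is the number of genes; medians run from -0.09 for the endoplasmic reticulum to 0.23 for the heat shock factors and regulators.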

How the data were processed

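HCT116 cells with siRNA-NC or si-AC010789.1 were sequenced as 3 libraries per group. The deposited values were raw read counts per Ensembl transcript and library, without normalization, which the authors did not describe further in the sources used here: the submitters' processing notes name CASAVA 1.8, TopHat2 2.0.6 and the builds GRCh38 and mm10 without roles, and the counting tool and strand setting are not given in the sources used here. No listed transcript has a total under 3 counts. Of 98886 transcripts, 98803 matched GENCODE v29 (99.9% of counts in each library) and 83 were left out.

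Counts were summed per gene. Genes and single transcripts were tested with edgeR 4.0.16 (TMM, filterByExpr with a minimum count of 10 and total of 15, quasi-likelihood test, Benjamini-Hochberg over all genes or transcripts tested, threshold 0.05). CPM were scaled by TMM factors. TPM used transcript lengths. Shares were compared by exact two-sided permutation tests. R 4.3.3, DESeq2 1.42.0, Python 3.11.15, pandas 2.3.3, scipy 1.17.1, biopython 1.88 and matplotlib 3.10.9 were used. The floor of 3 counts covers counting error only. On simulated data with 13637 genes, the gene test recovered 49.4%, 91.4% and 100% of changes of 1, 2 and 4 on the log2 scale, and with 40863 transcripts the transcript test recovered 0%, 0% and 15.6%.

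The members and lists were chosen with earlier results of these data known. Named were all members, the 3 transcripts with the largest mean share in each, transcripts with an adjusted p under 0.05 or with an unadjusted p under 0.05, an absolute log2 fold change over 1 and groups apart, and, in each related list, genes with an adjusted p under 0.05, the most abundant gene per length and the 2 with the largest absolute log2 fold change. The study describes its repeats as biological ones from separate generations of the cells, and the labels do not tie a library to a culture, so p-values measure the spread between these libraries. All replicate pairs differed beyond sampling noise. Alternatives were DESeq2, its size factors, other filters, a replicate block, leaving out each library, protein-coding transcripts only, added pseudogene rows and counts per kilobase.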

Additional observations from a re-analysis of the deposited data

How the results depend on the processing

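The precision is limited by 3 libraries per group and, for transcripts, by the spread between libraries. Deviations from the group means had correlations of 0.112, 0.0108 and 0.0167 between same-numbered libraries. Between libraries of different number they ran from -0.0895 to 0.0792. These values do not settle whether the numbers are pairs, and the main test did not take them as pairs. With the replicate block, 0 genes were called in place of 130, so the counts of members (0) and related genes (0) could not differ from 0. The member transcripts called were also 0. DESeq2 called 568 genes, 2 members, 2 related genes and 4 member transcripts. Without a filter 69 genes were called, and with protein-coding transcripts only 56. The HSP90AA1 log2 fold change was then 6.28e-05 in place of 0.25. Leaving out each library gave 12 to 37 genes, 0 members, 0 to 1 related genes and 0 member transcripts, the 1 being CANX without siRNA-NC replicate 3. Signs turned for HSPA1B (0.0019 with protein-coding transcripts only, -0.037 to 0.028 when each library was left out), HSPH1 (-0.058 and -0.052 to 0.067) and HSP90AB1 (-0.011 to 0.099 when each library was left out), all near 0, and for HSPE1 (-0.10 as the log2 ratio of means without HSPE1-202, added after seeing the data). With counts per kilobase, the protein-coding share differed by -20.9 percentage points for HSP90AA1, -0.80 for HSPA4 and 6.11 for HSPE1 (1.42 with counts), and the lead share of HSP90AA1 by -6.96 (1.07 with counts). The cause of these shifts was not tested.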
